A study of Mus musculus with 9 samples.

Results

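The genes described here are 10 lineage genes of tendon, cartilage and bone: Scx, Tnmd, Sox9, Acan, Comp, Chad, Cilp, Runx2, Sp7 and Bglap1. They were found by gene name among the non-control spots of Agilent whole mouse genome arrays, and every probe of each was read. They make up 10 of 27597 gene names, with 15 of 41174 probes and 33 of 43379 spots. The cells were taken from the tibialis anterior, a leg muscle, at an age of 3 months, and each group had 3 arrays. iPax3 cells and iPax7 cells are pluripotent stem cell-derived myogenic progenitors, named after the transcription factors Pax3 and Pax7, that had been injected into muscle and re-isolated as mononucleated cells. Their strain label was NSG/NSGmdx4cv, which names immunodeficient mice with and without a mutation of the dystrophin gene, and it does not say which host gave which sample. The third group was adult satellite cells, which are the stem cells that reside in muscle, from mice of the strain label Pax7-ZsGreen. Per the labels, 1500 cells were sorted from 3 mice per line in 3 independent experiments, and the sorting gate is not given in them. The question of the design was how the re-isolated cells differ from adult satellite cells.

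Tendon, cartilage and bone are built by mesenchymal cells under a few transcription factors. Scx marks tendon progenitors and acts upstream of Tnmd, a membrane protein of mature tenocytes. Sox9 drives chondrocyte formation and the cartilage proteoglycan gene Acan, whereas Runx2 and then Sp7 drive osteoblast formation and the bone matrix gene Bglap1, which encodes osteocalcin. Comp, Chad and Cilp encode secreted matrix proteins that were named from cartilage, and Comp is also abundant in tendon. Skeletal muscle is joined to tendon and bone, and its connective tissue cells share matrix genes with both.

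Levels are log2 signals minus the 75th percentile of the same array, which is the level 0. A level compares samples for a given probe and cannot be set against that of another probe. All 10 genes passed the filter on dim probes and were tested, as did 13 of their 15 probes, and 7 of the genes were well above background on all 9 arrays. Across the arrays, 57.2% to 79.9% of spots were well above background. The satellite arrays had a strain, slides and scan days of their own, which cannot be told apart from the group. In bulk samples of sorted cells, more cells of a type and more RNA per cell cannot be told apart.

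Cilp was the only gene of the 10 whose difference passed the test, and it was higher in both re-isolated groups. Its protein, cartilage intermediate layer protein, is secreted into the matrix. Scx, Sox9, Acan and Runx2 differed from satellite cells by less than 1 log2 unit in both groups by the probe that stood for each, and none of these differences passed the test. Tnmd in iPax3 cells, Comp in iPax7 cells and Sp7 in both had differences above 2 log2 units, and Chad in iPax3 cells a difference below -2, that did not pass it. Across all 22694 genes tested, 0.432% passed for iPax3 minus satellite cells, 0.533% for iPax7 minus satellite cells and 1.04% for both re-isolated groups together minus satellite cells, with limma and a Benjamini-Hochberg adjusted p of 0.05. Of the 10 genes, 1 passed in each of these comparisons.

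**Figure D1:**
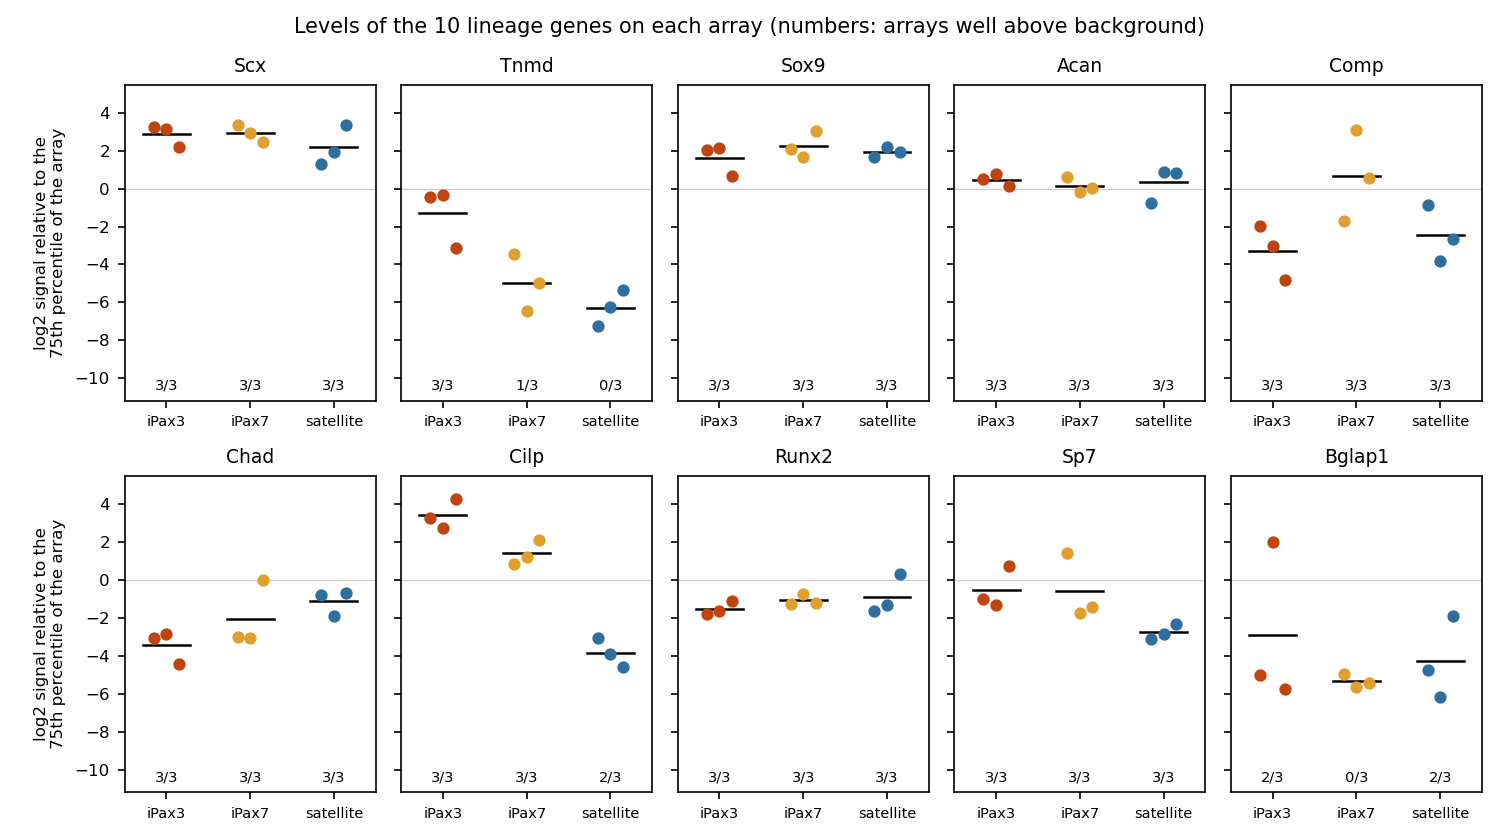
Level of each of the 10 genes on every array (y axis, log2 signal minus the array's 75th percentile) in iPax3, iPax7 and satellite cells (x axis), each point 1 array and each line a group mean, with the number of arrays well above background printed below. Cilp sat between 0.85 and 4.28 on the 6 re-isolated arrays, above all 3 satellite arrays, while Scx, Sox9, Acan and Runx2 overlapped between the groups.

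The probes of 5 genes are shown first because the reading of their values depends on them. The probe of Bglap1 (mm8, chr3:88469562-88469621, minus strand) is given because the gene rests on this single probe, which was not well above background on every array.
Bglap1: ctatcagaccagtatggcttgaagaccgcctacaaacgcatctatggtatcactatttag

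Runx2 is transcribed from a distal and a proximal promoter, which give proteins with different first residues. Probe A_52_P55876 (mm8, chr17:44277234-44277293, minus strand) holds the start codon of the distal form, in capitals. Probe A_52_P460545 (mm8, chr17:44071031-44071090, minus strand) lies 206 kb further along the gene, in its body.
Runx2, A_52_P55876: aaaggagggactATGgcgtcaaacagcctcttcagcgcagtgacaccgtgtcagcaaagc
Runx2, A_52_P460545: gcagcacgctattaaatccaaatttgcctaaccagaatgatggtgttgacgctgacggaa

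The probes that stood for Sox9 (mm8, chr11:112599086-112599938, across an intron), Comp (mm8, chr8:73310782-73310915, across an intron) and Tnmd (mm8, chrX:129209298-129209357), all on the plus strand, are given because the results on these genes rest on single probes.
Sox9, A_51_P451606: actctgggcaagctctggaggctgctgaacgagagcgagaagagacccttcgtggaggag
Comp, A_51_P409010: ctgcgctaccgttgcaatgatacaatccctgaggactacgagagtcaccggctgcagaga
Tnmd, A_51_P108183: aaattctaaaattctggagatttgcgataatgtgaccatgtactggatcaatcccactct

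Among the tendon genes, the transcription factor gene Scx was well above background on all 9 arrays. Its levels were 3.24, 3.14 and 2.23 on the iPax3 arrays, 3.38, 2.93 and 2.47 on the iPax7 arrays, and 1.32, 1.94 and 3.34 on the satellite arrays. The re-isolated arrays fell within or just above the span of the satellite arrays, and the groups overlapped. The difference from satellite cells was 0.67 ± 0.75 (SE, adjusted p = 0.722) in iPax3 cells and 0.73 ± 0.75 (adjusted p = 0.725) in iPax7 cells. The 95% interval for both groups together ran from -0.77 to 2.16.

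Tnmd encodes tenomodulin, the membrane protein of mature tendon cells. It was well above background on 3 of 3 iPax3 arrays, 1 of 3 iPax7 arrays and 0 of 3 satellite arrays. The levels were -0.44, -0.34 and -3.11 on the iPax3 arrays, -3.45, -6.48 and -5.00 on the iPax7 arrays, and -7.27, -6.24 and -5.34 on the satellite arrays. All 3 iPax3 arrays stood above all 3 satellite arrays, as for 8.61% of all genes, whereas iPax7 and satellite arrays overlapped. The iPax3 level was at least 14.8-fold that of satellite cells, a bound taken against the lowest signals that were well above background on the satellite arrays. This bound is on the scale of the processed signal. The difference did not pass the test (4.99 ± 1.08, adjusted p = 0.101), and it was 1.43 with the model-based normexp background correction and 2.66 in the log2 values of the authors' deposited table. That of iPax7 cells did not pass either (1.31 ± 1.08, adjusted p = 0.656). iPax7 cells stood below iPax3 cells without overlap (-3.68 ± 1.08, unadjusted p = 0.00734, adjusted p = 0.92), and 4.89% of all genes did so too. On the slide that held all iPax3 arrays and iPax7 replicate 1, the difference was -2.16.

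Among the cartilage genes, the transcription factor gene Sox9 had 3 probes. The probe that stood for it, well above background on all 9 arrays, read 2.02, 2.15 and 0.65 on the iPax3 arrays, 2.10, 1.65 and 3.07 on the iPax7 arrays, and 1.68, 2.22 and 1.92 on the satellite arrays. These groups overlapped, and both re-isolated groups together differed from satellite cells by 0.0014 ± 0.62 (adjusted p = 1), with a 95% interval from -1.41 to 1.41. The second probe, A_52_P577484, was well above background on all 6 re-isolated arrays and on 1 of 3 satellite arrays. It read 1.58, 1.76 and -0.91 on the iPax3 arrays, 2.32, -0.04 and 0.28 on the iPax7 arrays, and 1.45, -6.29 and -5.87 on the satellite arrays. Satellite replicate 1 thus lay among the re-isolated arrays and the other satellite arrays far below them, which the first probe did not show.

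The third Sox9 probe, A_52_P214630, was spotted 10 times on each array. All 10 spots were well above background on iPax3 replicate 3, satellite replicate 1 and satellite replicate 3, at mean levels of -2.48, -3.56 and -2.74, and at most 1 of 10 on any other array. The SD among its 10 spots was at most 0.2 on every array, so the split between arrays was far larger than the spread between spots. The 3 probes therefore gave Sox9 differences of different sign and size, and the gene's value above is that of its brightest probe.

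**Figure D2:**
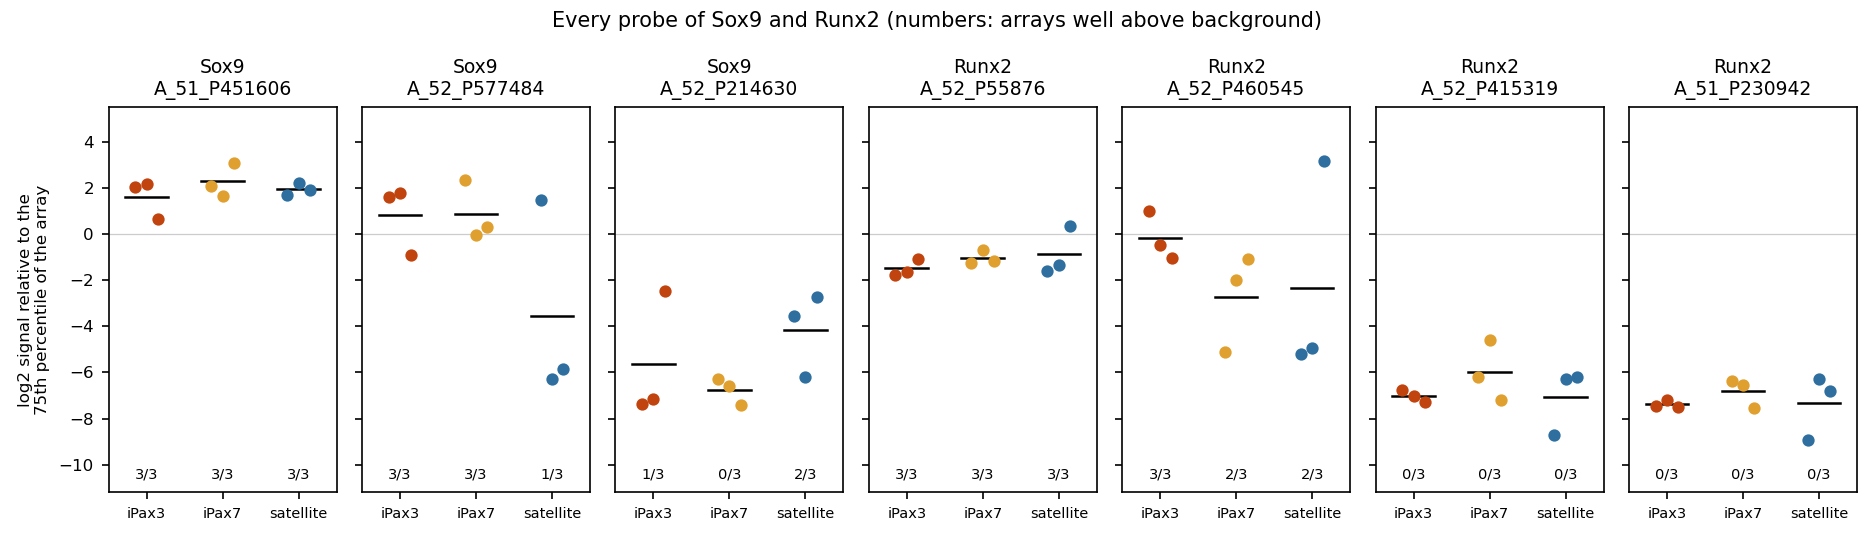
Levels of the 3 Sox9 probes and the 4 Runx2 probes (y axis, log2 signal minus the array's 75th percentile) in iPax3, iPax7 and satellite cells (x axis), each point 1 array and each line a group mean, with the number of arrays well above background printed below. The first probe of each gene was well above background on all 9 arrays, and the last 2 Runx2 probes on 0 of 9.

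Acan, which encodes the large proteoglycan aggrecan, stayed near 0 on every array. It read 0.51, 0.79 and 0.15 on the iPax3 arrays, 0.61, -0.19 and 0.03 on the iPax7 arrays, and -0.73, 0.88 and 0.85 on the satellite arrays. The groups overlapped, and the difference of both re-isolated groups from satellite cells was -0.02 ± 0.61 (adjusted p = 0.992), with a 95% interval from -1.39 to 1.36.

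Comp, whose pentameric product binds collagen fibrils, varied more among arrays of the same group than did Scx or Acan. It read -1.94, -3.03 and -4.83 on the iPax3 arrays, -1.72, 3.08 and 0.57 on the iPax7 arrays, and -0.86, -3.84 and -2.67 on the satellite arrays. iPax7 replicate 2 was the highest array, and iPax7 replicate 1 lay below satellite replicate 1. The iPax7 difference from satellite cells was 3.10 ± 1.34 (unadjusted p = 0.0455, adjusted p = 0.393), and it was 1.88 without iPax7 replicate 2 and 4.28 without iPax7 replicate 1. iPax7 cells stood above iPax3 cells without overlap, as 4.45% of all genes did (3.91 ± 1.34, adjusted p = 1). On the slide they shared this difference was 1.55.

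Chad encodes chondroadherin, a leucine-rich protein of cartilage matrix that cells can attach to. It read -3.04, -2.83 and -4.43 on the iPax3 arrays, -3.02, -3.05 and -0.0018 on the iPax7 arrays, and -0.78, -1.88 and -0.70 on the satellite arrays. All iPax3 arrays and 2 of 3 iPax7 arrays lay below the satellite arrays, and iPax7 replicate 3 lay above them. The difference was -2.32 ± 0.97 (unadjusted p = 0.0409, adjusted p = 0.378) for iPax3 cells, and 10.4% of all genes were likewise lower there without overlap. For iPax7 cells it was -0.90 ± 0.97 (adjusted p = 0.74), and -1.91 without iPax7 replicate 3.

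Cilp (probe at mm8 chr9:65078206-65078265, plus strand) was well above background on 8 of 9 arrays, all but satellite replicate 3. It read 3.28, 2.76 and 4.28 on the iPax3 arrays, 0.85, 1.25 and 2.14 on the iPax7 arrays, and -3.07, -3.87 and -4.57 on the satellite arrays. The lowest re-isolated array stood more than 3 log2 units above the highest satellite array. With a gap of any size, 4.14% of all genes were higher on all re-isolated arrays. The group means were 3.44 ± 0.77, 1.41 ± 0.66 and -3.84 ± 0.75 in iPax3, iPax7 and satellite cells (SD, n = 3 each). Cilp rose 155-fold in iPax3 cells (7.28 ± 0.75 log2 units, adjusted p = 0.00566) and 38-fold in iPax7 cells (5.25 ± 0.75, adjusted p = 0.0219). In both groups together the rise was 76.7-fold (6.26 ± 0.65, adjusted p = 0.00341). With normexp background correction, the rises were smaller, at 5.27, 3.27 and 4.27 log2 units, and that of iPax7 cells did not pass (adjusted p = 0.0624).

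The iPax3 rise and that of both groups together passed the test with each array left out in turn. The iPax7 rise did not when iPax7 replicate 1, 2 or 3 was left out (5.53, 5.33 and 4.88, adjusted p = 0.0695, 0.0742 and 0.0972), nor without satellite replicate 2 or 3 (5.23 and 4.88, adjusted p = 0.0824 and 0.075). It also did not with the slide as a random block (5.18, adjusted p = 0.086). As for 4.89% of all genes, the 3 iPax7 arrays lay below the 3 iPax3 arrays (-2.03 ± 0.75, unadjusted p = 0.0241, adjusted p = 1). On their shared slide the difference was -2.59. In the log2 values of the authors' deposited table, the Cilp spot read 12.28, 12.15 and 13.00 on the iPax3 arrays, 9.46, 10.31 and 11.10 on the iPax7 arrays, and 6.132, 5.997 and 6.158 on the satellite arrays.

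The promoter of Cilp is shown because this was the gene that moved. It runs from 250 bases before to 50 bases after the gene start in the RefSeq table of GRCm38.p6 (chr9:65264930-65265229, plus strand), which held promoters for 6 of the 10 genes. Capitals mark the matches to the motifs searched on both strands: the E-box CANNTG, the Runx core TGTGGT, the Sox core AACAAT and the TATA sequence TATAAA.
Cilp promoter: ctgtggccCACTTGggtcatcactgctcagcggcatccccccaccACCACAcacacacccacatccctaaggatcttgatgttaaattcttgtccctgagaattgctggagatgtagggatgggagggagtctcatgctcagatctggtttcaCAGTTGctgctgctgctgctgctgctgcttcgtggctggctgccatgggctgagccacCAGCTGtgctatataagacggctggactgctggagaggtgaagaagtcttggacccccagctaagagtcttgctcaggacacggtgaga
It held 3 E-box matches, at -242, -97 and -39 from the gene start, and 1 Runx core on the reverse strand at -205. Exact matches of the Sox core and TATAAA were not in this window. Variants of the motifs, such as the tatataag in the printed sequence, were not searched. The E-box was in 72.3% of the 32851 promoters of the table, the Runx core in 16.8%, the Sox core in 10.7% and TATAAA in 13.6%, so an E-box is common, and no match here shows that a factor binds.

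Among the bone genes, Runx2 had 4 probes. Probe A_52_P55876, at the start of the distal form, was well above background on all 9 arrays. It read -1.78, -1.64 and -1.07 on the iPax3 arrays, -1.24, -0.71 and -1.18 on the iPax7 arrays, and -1.62, -1.33 and 0.33 on the satellite arrays. Satellite replicate 3 was the highest and the groups overlapped, with a difference of -0.40 ± 0.63 (adjusted p = 0.796) between both re-isolated groups and satellite cells.

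Probe A_52_P460545, in the body of Runx2, was well above background on 3 iPax3, 2 iPax7 and 2 satellite arrays. It read 1.01, -0.49 and -1.06 on the iPax3 arrays, -5.13, -1.98 and -1.07 on the iPax7 arrays, and -5.21, -4.94 and 3.14 on the satellite arrays. Satellite replicate 3 was the highest array here as well, and the other satellite arrays were among the 3 lowest. The other probes, A_52_P415319 and A_51_P230942, were not well above background on any array, and A_51_P230942 was spotted 10 times. For Runx2, the difference of iPax3 from satellite cells was 2.15 by the body probe (SE 2.12 in the limma fit of every probe, adjusted p = 0.702). By the first probe it was -0.62 ± 0.73 (limma, adjusted p = 0.733). The signs thus differed, but neither difference passed, so its direction is not settled.

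Sp7 encodes osterix, which acts downstream of Runx2 in osteoblasts. It read -0.995, -1.32 and 0.73 on the iPax3 arrays, 1.44, -1.75 and -1.43 on the iPax7 arrays, and -3.12, -2.84 and -2.31 on the satellite arrays. All 6 re-isolated arrays lay above all 3 satellite arrays, as for 4.14% of all genes, and for 8.61% and 7.63% in the iPax3 and iPax7 comparisons. The difference was 2.23 ± 0.99 (adjusted p = 0.402) in iPax3 cells and 2.18 ± 0.99 (adjusted p = 0.413) in iPax7 cells. For both together it was 2.20 ± 0.86 (95% interval 0.27 to 4.14, adjusted p = 0.276).

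Bglap1 was well above background on 2 iPax3, 0 iPax7 and 2 satellite arrays. It read -5.00, 2.02 and -5.76 on the iPax3 arrays, -4.93, -5.62 and -5.45 on the iPax7 arrays, and -4.75, -6.18 and -1.87 on the satellite arrays. Only iPax3 replicate 2 was above 0, and without it the difference of iPax3 from satellite cells turned from 1.35 ± 1.93 (adjusted p = 0.783) to -1.11. The mean of the satellite arrays gave a bound of at least 1.3-fold over iPax7 cells (adjusted p = 0.856), which rested on satellite replicate 3. Without that array, the difference of iPax7 from satellite cells turned from -1.06 ± 1.93 to 0.13.

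**Figure D3:**
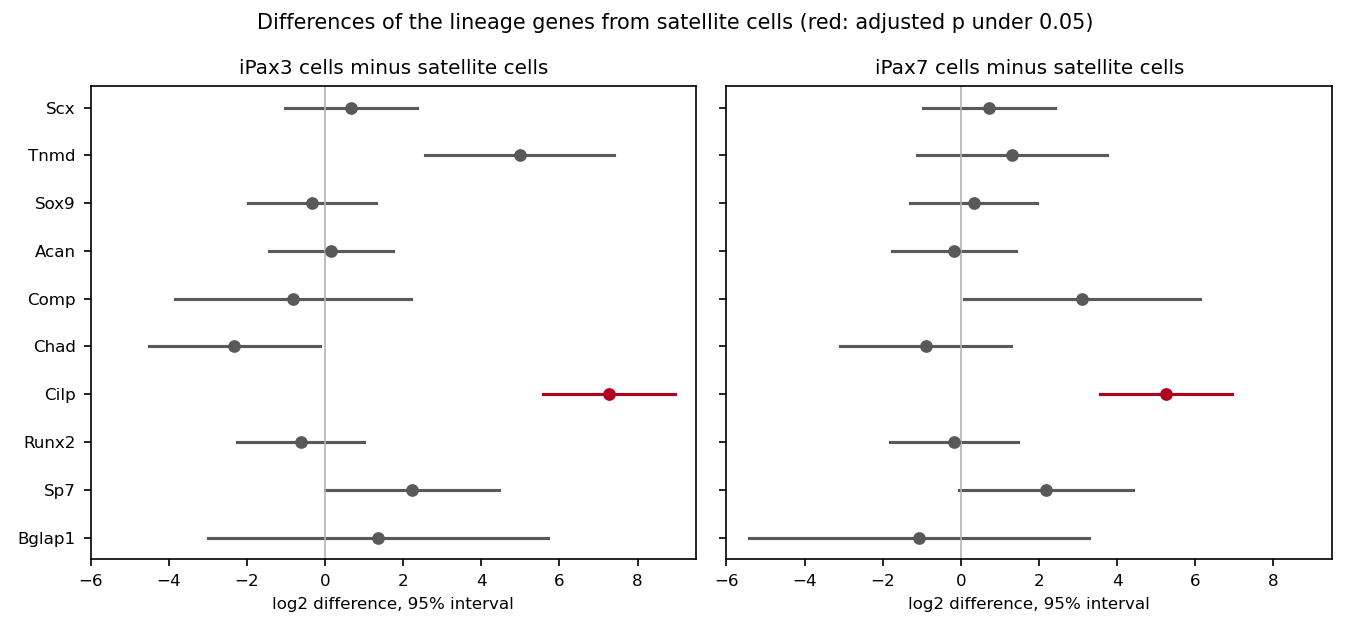
Difference of each of the 10 genes from satellite cells (x axis, log2, with the 95% interval of the fit) in iPax3 cells on the left and iPax7 cells on the right, red where the adjusted p was under 0.05. Cilp, at 7.28 and 5.25, was the only gene in red in either panel.

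Between iPax7 and iPax3 cells, 0% of all genes passed limma's test, and 930 of 22694 had an unadjusted p under 0.05. With quantile scaling, with the probes of a gene averaged, and with the slide as a random block, 1 gene passed. Of the 10 genes, Comp was higher in iPax7 cells and Tnmd and Cilp were lower, without overlap and at the values above. Over all genes, 4.45% were higher in iPax7 cells without overlap and 4.89% were lower. iPax7 replicates 2 and 3 were on a slide that held no iPax3 array.

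The genes whose levels ran most alike over the 9 arrays were found by the root mean square difference of levels, each centred on its own mean, over 18920 genes. For Cilp these were Rer1 (0.82) and Serpina3j (0.87), against an SD of 3.31 for Cilp itself over the arrays. For Comp they were Arpin (0.96) and Gzf1 (1.02), and for Sp7 Dut (0.60) and Ptp4a2 (0.60). The flatter genes had closer neighbours, with Epn2 (0.16) and Mrps26 (0.22) for Runx2, Lrfn1 (0.24) and Tmem41a (0.25) for Sox9, and Bbox1 (0.17) and Dydc1 (0.18) for Acan. Scx ran most like V1rb5 (0.14), and Chad ran near Dtx2 (0.24). The arrays share slides and depth, so these are descriptions.

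Other genes of the same programmes are given from fixed lists. Of 23 tested tendon genes, 7 rose in both re-isolated groups together against satellite cells, 0 fell and 16 did not pass. Of all 22694 genes tested, 182 rose and 54 fell in this comparison. With the slide, the scan day or the replicate number as a block, 4, 4 and 5 of the 23 passed. The median difference of the list was 1.82, against -0.16 over all genes tested. The 7 were the small proteoglycan genes Dcn and Lum, the collagen genes Col14a1, Col1a1, Col1a2 and Col3a1, and Tnc, the matrix glycoprotein tenascin C.

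Dcn, which encodes the collagen-binding proteoglycan decorin, read 7.58, 6.76 and 7.87 on the iPax3 arrays, 8.37, 7.19 and 7.36 on the iPax7 arrays, and -0.17, -1.71 and -1.70 on the satellite arrays. It rose by 8.71 ± 0.65 log2 units (adjusted p = 0.000726), and Col14a1, a fibril-associated collagen, by 8.66 ± 0.63 (adjusted p = 0.000726). Across the other settings these rises ran down to 6.10 for Dcn and 5.57 for Col14a1. Col14a1 was well above background on 2 of 3 satellite arrays. Satellite replicate 2 read -5.37 for it, below the lowest signal well above background there (-4.14), so the size of its rise is uncertain. The chains of type I collagen rose by 6.30 ± 0.65 for Col1a1 (adjusted p = 0.00318) and by 5.99 ± 0.64 for Col1a2 (adjusted p = 0.00374). In both groups together these 4 genes also passed with each array left out and under each other setting that held them. They passed in both lines separately, where the calls of Dcn and Col14a1 held likewise. In iPax3 cells, Col1a1 and Col1a2 each passed in 5 of 9 fits with a single array left out, and both lost their calls with the slide block, Col1a2 also with the scan day and replicate blocks. In iPax7 cells, Col1a1 passed in 8 of these 9 fits and Col1a2 in 6 of 9, and Col1a2 did not pass with the mean of probes. Lum rose by 5.39 ± 0.90 (adjusted p = 0.0298) and Col3a1 by 5.11 ± 0.93 (adjusted p = 0.0422). Tnc rose by 3.67 ± 0.69 (adjusted p = 0.045) and by 5.23 ± 0.79 (adjusted p = 0.0324) in iPax3 cells. In iPax7 cells its difference was 2.11 ± 0.79 (adjusted p = 0.335), and between iPax7 and iPax3 cells -3.12 ± 0.79 (adjusted p = 0.828). Lum and Col3a1 each passed without satellite replicate 1 and failed without any other single array, and Tnc passed in 2 of these 9 fits. The Tnc call in iPax3 cells likewise held in 2 of 9. With the slide or scan day block, Lum, Col3a1 and Tnc did not pass in both groups together, nor Tnc in iPax3 cells, and with the replicate block only Lum of them did. Over the 11 other settings, Tnc passed in 5 in both groups together and in 8 in iPax3 cells.

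Among transcription factor genes of the tendon list, Mkx and Egr1 are given as examples chosen after their values were seen. Mkx, the mohawk homeobox gene of tendon, averaged 0.99 ± 0.16, 0.72 ± 0.08 and 1.53 ± 1.33 in iPax3, iPax7 and satellite cells (SD, n = 3 each), and Egr1 averaged 5.87 ± 0.44, 5.93 ± 0.52 and 5.70 ± 0.29. Neither difference passed the test (adjusted p = 0.655 and 0.896 in both groups together). Six2 was well above background on 1 of 9 arrays and was not tested.

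Of 27 tested cartilage genes, 1 rose, 1 fell and 25 did not pass in both groups together, and the median difference was -0.49. Of all genes tested, 1.04% passed in this comparison. Col2a1, the main fibrillar collagen gene of cartilage, read 5.69, 5.37 and 5.76 on the iPax3 arrays, 6.34, 5.37 and 5.58 on the iPax7 arrays, and 2.55, 1.36 and 0.17 on the satellite arrays. All re-isolated arrays stood above all satellite arrays, as for 4.14% of all genes, and the rise was 4.33 ± 0.66 (adjusted p = 0.0213). It was 1.02 when the gene's probes were averaged, and then no longer passed (adjusted p = 0.546). Gdf5, a growth factor gene of joint formation, read -0.61, -0.86 and -0.79 on the iPax3 arrays, -0.34, -0.59 and -0.79 on the iPax7 arrays, and 1.69, 3.53 and 4.25 on the satellite arrays. It fell by 3.82 on the log2 scale (SE 0.67, adjusted p = 0.0361). With a single array left out, Col2a1 passed in 2 of 9 fits and Gdf5 in 1 of 9, each of them including the fit without satellite replicate 1. With the slide, the scan day or the replicate number as a block, neither passed limma's test (adjusted p = 0.0547 to 0.133 for Col2a1 and 0.0929 to 0.194 for Gdf5). Pth1r, the receptor for parathyroid hormone, differed by 3.98 ± 1.33 without passing (adjusted p = 0.216), and Ucma was well above background on 1 of 9 arrays.

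Of 22 tested bone genes, 0 passed the limma test in any comparison. Their median difference was 0.69 in both groups together, where 4 had an unadjusted p under 0.05, against 3491 of all 22694 genes. At an adjusted p under 0.05, 1 of the 20 in the deposited value table rose in both groups together, as did 1 of 22 with the mean of probes and 1 of 22 without iPax7 replicate 1. The largest differences were those of Pth1r, of Ogn, which encodes the small proteoglycan osteoglycin (3.34 ± 1.05, adjusted p = 0.198), and of Phex, an endopeptidase gene of osteocytes (at least 1.31-fold by the group means, adjusted p = 0.384). Phex was well above background on 1 iPax3, 2 iPax7 and 0 satellite arrays. The mineralisation enzyme gene Alpl was well above background on 1 of 9 arrays, and the bone matrix genes Ibsp, Dmp1 and Spp1 on 2, 2 and 0 of 9. These 4 and Dlx3, a homeobox gene, were not tested.

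Of 14 tested genes of the sclerotome, the embryonic source of the axial skeleton, and of skeletal patterning, 2 rose in both groups together and 0 fell. Among all genes tested, 1.04% passed there. The 2 list genes were the homeobox gene Meox2 (6.58 ± 1.22, adjusted p = 0.0436) and Gli3, a mediator of hedgehog signalling (6.53 ± 1.19, adjusted p = 0.0425). Both were well above background on all 6 re-isolated arrays and on 1 of 3 satellite arrays. Meox2 read -0.46, -6.26 and -5.64 on the satellite arrays, and Gli3 -1.66, -6.22 and -6.67. The values of satellite replicates 2 and 3 lie below the lowest signals well above background there (-4.14 and -4.66), so the size of both differences is uncertain. Across the other settings they ran down to 3.77 for Meox2 and 3.21 for Gli3. Both passed only without satellite replicate 1 when single arrays were left out. Neither passed with the slide or scan day block, and with the replicate block Gli3 alone passed. Twist1, a mesenchymal transcription factor gene, was at least 4.34-fold higher by the group means without passing (limma, adjusted p = 0.245). It was well above background on 2 iPax3, 2 iPax7 and 0 satellite arrays. The groups overlapped, as iPax3 replicate 2 read -7.27 and the satellite arrays -8.87, -6.33 and -6.88. The median difference was 0.42, and the sclerotome factor gene Pax9 was well above background on 2 of 9 arrays.

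**Figure D4:**
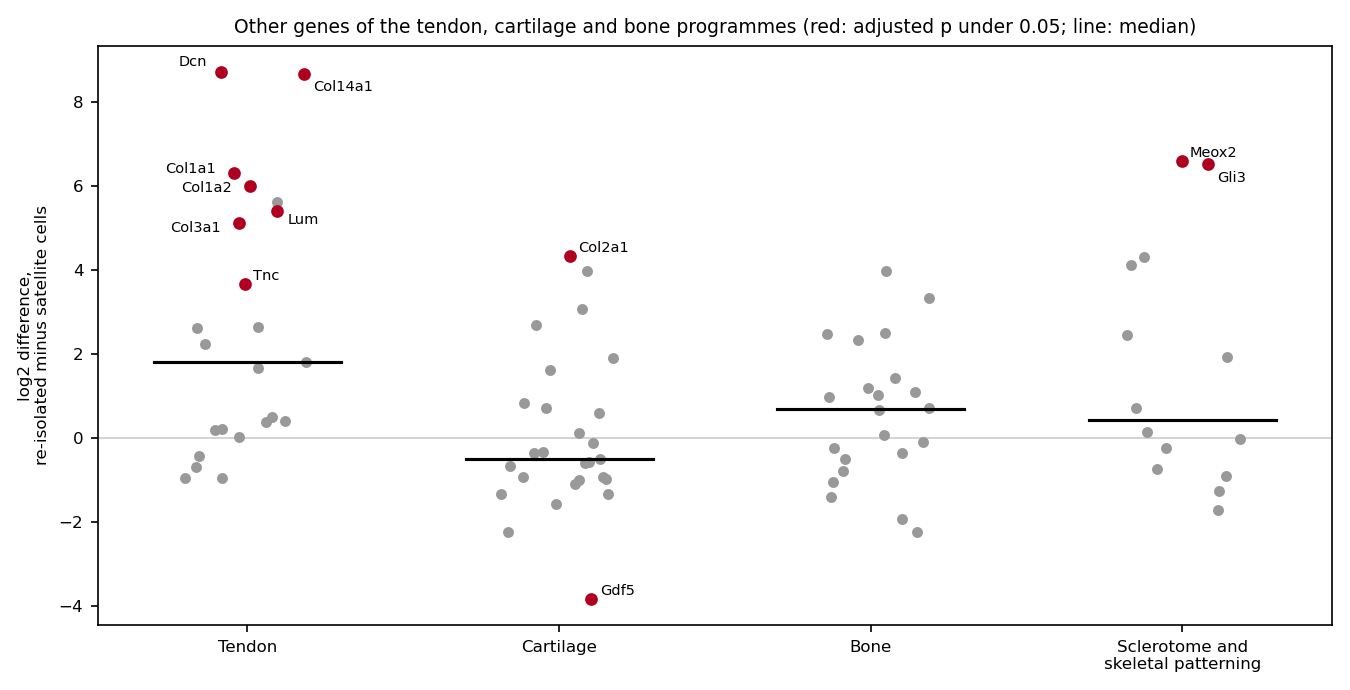
Difference between both re-isolated groups together and satellite cells (y axis, log2) for the tested genes of the tendon, cartilage, bone, and sclerotome and skeletal patterning lists (x axis), each point 1 gene, red where the adjusted p was under 0.05, with the list median as a line. The medians were 1.82, -0.49, 0.69 and 0.42, and 7 of the 11 genes in red were tendon list genes.

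Markers of fibro-adipogenic progenitors and fibroblasts, the connective tissue cells of muscle, moved with Cilp and the tendon list. Of 10 such genes, 10 were higher and 6 passed the test in both groups together, among them Pdgfra (7.90 ± 0.69, adjusted p = 0.00145). The median difference of this list was 4.47, against -0.16 over all genes tested, of which 1.04% passed. Dcn, Lum and Col3a1 stood in this list and in the tendon list, and each of them was among the 6 that passed. The 2 lists therefore moved together in part because they share genes. The summed linear level of the 10 genes, in units of each array's 75th percentile, was 292 to 558 in iPax3 cells, 423 to 781 in iPax7 cells and 15 to 22.1 in satellite cells. On the re-isolated arrays, most of this sum came from Dcn and Col3a1. The median log2 level of the 10 genes was 2.44 to 3.85 on the iPax3 arrays and 3.93 to 4.63 on the iPax7 arrays. On the satellite arrays it was -1.67 to -1.01. Markers of satellite cells and myoblasts went the other way, with 9 of 9 tested genes lower and 1, Chrdl2, past the threshold. Their median difference was -3.69. Their summed level was 38.0 to 50.1 in iPax3 cells, 33.4 to 70.3 in iPax7 cells and 130 to 250 in satellite cells. In the lists of muscle fibre, endothelial, leukocyte, pericyte and Schwann cell markers, 0, 0, 0, 1 and 0 genes passed limma's test in both groups together, and 0, 0, 0, 1 and 0 had an unadjusted p under 0.05. Over all genes tested, 3491 of 22694 had such an unadjusted p. By line, the endothelial list had a median difference from satellite cells of -2.06 in iPax3 cells and 0.97 in iPax7 cells. Of its 6 genes, 6 were higher in iPax7 than in iPax3 cells (median 2.7), and 0 passed in any of these comparisons. The part of any cell type in the differences of Cilp and the tendon genes was not tested.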

How the data were processed

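RNA of sorted cells had been amplified as cDNA with SuperAmp and labelled with Cy3, per the labels' protocols. Per the file headers, the deposited intensity values are those of Agilent's Feature Extraction software, version 10.5.1.1, and the probe positions are on mm8. The deposited table of log2 values was made by the authors with limma, per the submitters' processing notes. Its steps are not given in the sources used here, so it served as an alternative only. Its column medians lay between 7.633 and 7.709.

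Here, processed signals were taken as log2 minus each array's 75th percentile over non-control spots, without outlier spots. Spots of a probe were averaged. Probes well above background on at least 3 of 9 arrays, by at least 50% of their spots, were kept (32953 of 41174). The probe with the highest mean stood for its gene. limma 3.58.1 in R 4.3.3 fitted a mean per group over all 9 arrays, and p-values were adjusted over 22694 genes. Values after ± are standard errors of differences, or SD for group means. Where a probe was dim on every array of a group, a bound is given, written as at least N-fold, against the lowest signal well above background on each such array. Other probes of a gene than the one that stood for it were tested only in an alternative fit of every probe. There, the other Sox9 and Runx2 probes kept by the filter did not pass limma's test (lowest adjusted p = 0.284, Sox9 probe A_52_P577484, both groups together). The method was tested on simulated data whose noise was independent between arrays. They held no slide or scan day effect, so they cannot show how such effects act on the calls. The number of arrays limits the precision, and p-values reflect the spread among these samples only, which may be technical. Alternatives changed the background correction, scaling, filter, probe rule, blocks and arrays. Replicate numbers did not pair the samples.

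The genes described and the lists were chosen with earlier results of these data known. The genes named are all 10 lineage genes with every probe and the 2 genes running most alike. From each programme list they are the called genes and the 3 largest differences. Mkx, Egr1, some genes that were not tested and the cell type markers were named outside this rule. Neighbours known only by an accession are not named. Sequences are those in the array files and, for the promoter, RefSeq's.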

Additional observations from a re-analysis of the deposited data

How the results depend on the processing

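Cilp kept its direction against satellite cells under each alternative that held it. Its call held in iPax3 cells and in both groups together, over 5.27 to 7.66 and 4.27 to 6.65 log2 units. In iPax7 cells it was lost, leaving 0 of the 10 genes called, under normexp background correction (3.27, adjusted p = 0.0624), the slide (5.18, 0.086) or scan day (5.20, 0.0949) as a random block and the replicate block (5.25, 0.0765). With probes above background on all 9 arrays, Cilp was not tested by construction, which left 0 called in each comparison with satellite cells, and 76 of all genes for iPax7. The cause of the other losses was not tested. Genes called for iPax3, iPax7 and both groups were 14, 43 and 47 with the slide block, 27, 36 and 43 with the scan day block, and 37, 55 and 115 with the replicate block, against 98, 121 and 236. The deposited table gave 186 and 196 for iPax3 and iPax7. Replicate numbers did not pair the samples, at correlations of -0.13 to 0.063. For iPax7 minus iPax3, quantile scaling, the mean of probes and the slide block called 1 gene. With single arrays left out, the counts ran from 19 (without iPax3 replicate 3) to 452, from 35 (without iPax7 replicate 1) to 490 and from 75 (without satellite replicate 2) to 692, each highest without satellite replicate 1, and were 0 for iPax7 minus iPax3. Called genes among the 10 ran from 0 to 1 for iPax7.

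Direction turned only where the difference did not pass the test. For iPax3 minus satellite these were Sox9 with quantile scaling (0.014), the deposited table (0.0581) and the mean of probes (0.85), Runx2 with the mean of probes (0.77), and Acan (-0.0243) and Comp (0.08) with the slide block. For iPax7 minus satellite it was Tnmd with normexp (-0.17). For both groups it was Acan with quantile scaling (0.13), the deposited table (0.056) and the scan day block (0.048), and Runx2 with the mean of probes (0.24). For iPax7 minus iPax3 it was Scx with quantile scaling (-0.23) and the deposited table (-0.24), Sox9 (-0.13) and Runx2 (-1.05) with the mean of probes, Sp7 with normexp (0.025), the slide block (0.97) and the slide as a fixed block (1.97), and Acan with the fixed block (0.13). With single arrays left out, the values that turned sign ran, for iPax3 minus satellite, from -0.60 to 0.15 for Sox9, from -0.38 to 0.42 for Acan and from -1.11 to 2.78 for Bglap1. For iPax7 minus satellite they ran from -0.065 to 0.64 for Sox9, from -0.71 to 0.089 for Acan, from -0.54 to 0.43 for Runx2 and from -2.02 to 0.13 for Bglap1. For both groups they ran from -0.20 to 0.24 for Sox9, from -0.55 to 0.26 for Acan, from -0.77 to 0.20 for Runx2 and from -1.09 to 1.34 for Bglap1, and for iPax7 minus iPax3 from -0.26 to 0.29 for Scx, from -1.06 to 0.58 for Sp7 and from -3.84 to 0.046 for Bglap1. The fixed block was chosen after seeing the data, as was running the alternatives on the list genes.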
